A study of Mus musculus with 5 samples.

Results

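RNA polymerase II (Pol II) and histone H3 acetylated at lysine 27 (H3K27ac) were compared at the gene symbols that the authors listed with a region for both antibodies in neuronal nuclei of the adult mouse striatum. Members were all symbols with at least 1 line in both region lists. They numbered 8934 of the 19231 symbols that any of the 4 antibodies listed, out of 9163 for Pol II and 11273 for H3K27ac. For each symbol the region with the best score in each list was taken, and its place in the list is given as a percentile, its rank from the lowest score over the number of symbols in that list, times 100, with ties sharing their mean rank.

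All libraries came from striatal nuclei of C57BL/6 mice aged 8 weeks, labelled as medium spiny neurons, with no genotype or treatment given. The nuclei were sorted on NeuN, a protein of neuronal nuclei in general, so the sort itself does not separate medium spiny neurons from other striatal neurons. The 2 groups compared were chromatin immunoprecipitated with an antibody to Pol II and with an antibody to H3K27ac, with 1 library each. The other libraries were H3K4me3, H3K27me3 and 1 input, and the region lists were made over input. Without replicates no difference between the antibodies has a replicate check, and no test across samples was possible. Every interval given is exact (Clopper-Pearson, 95%) and covers counting error only. Read depth is unknown for both libraries, and whether depth or antibody strength moves with any difference below was not tested.

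Pol II transcribes protein-coding genes and many non-coding ones, gathers at promoters where it assembles with the general initiation factors, and often pauses just downstream of the start before elongation. H3K27ac is placed by the acetyltransferases p300 and CBP on nucleosomes that flank active promoters and enhancers, and is removed by histone deacetylases. Both therefore mark active promoters, but Pol II also lies along the bodies of transcribed genes, whereas H3K27ac also lies on enhancers.

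The labelled cell type was checked first. Of 42 genes shared by medium spiny neurons, 36 were listed for both antibodies, with median percentiles of 94.1 for Pol II and 98.1 for H3K27ac. Rbfox3, the gene of NeuN, had a Pol II score of 4.90 at percentile 96.8 and an H3K27ac score of 16.6 at percentile 99.96. Of glial and vessel markers, 2 of 16 oligodendrocyte, 3 of 13 astrocyte, 1 of 16 microglia and 1 of 14 endothelial and mural genes were listed for both. These were Mbp, Cnp, Slc1a2, Slc4a4, Gli3, Cd68 and Vtn, with Mbp at percentile 87.5 for H3K27ac. The H3K27ac list held 2 oligodendrocyte, 5 astrocyte, 2 microglia and 2 endothelial and mural genes. The markers Mog, Olig1, Olig2, Gfap, Aqp4, Csf1r, P2ry12 and Cldn5 were not among the shared symbols.

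Nearly all Pol II promoters were also H3K27ac promoters. The shared symbols were 97.5% of the Pol II list (97.2 to 97.8%) and 79.3% of the H3K27ac list (78.5 to 80.0%). The 229 symbols listed for Pol II alone lay low in their list, with a median percentile of 16.8, against 50.8 for the shared symbols in that list. The 2339 symbols listed for H3K27ac alone had a median percentile of 15.8, against 59.6 for the shared symbols in that list. Among the top 10% of each list, 5 of 916 Pol II symbols had no H3K27ac line and 2 of 1127 H3K27ac symbols had no Pol II line. No score was below 2 in either list, and the highest was 9.24 for Pol II and 18.8 for H3K27ac. The median score was 2.81 in the Pol II list and 4.07 in the H3K27ac list. The scale of the authors' score is not stated, so scores of the 2 antibodies are not set against each other here, only their ranks.

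The 2 rankings ran together with a wide scatter. Spearman's rho between the best scores was 0.669 across the 8934 symbols, a description only, since genes are not replicates, neighbours share regions and both lists were made over input. The Pol II percentile was within 25 points of the H3K27ac percentile at 6486 symbols (72.6%) and within 10 points at 37.8%. Of 2280 shared symbols in the top quartile by Pol II, 1661 were in the top quartile by H3K27ac (72.9%, 71.0 to 74.7%) and 25 in the bottom quartile (1.10%). Of 2144 in the bottom quartile by Pol II, 755 were in the bottom quartile by H3K27ac (35.2%, 33.2 to 37.3%) and 83 in the top quartile (3.87%). Counted from the H3K27ac side, the same 1661 symbols were 59.3% of 2802 in its top quartile and the same 755 were 62.7% of 1205 in its bottom quartile, and these quartiles held 31.4% and 13.5% of all shared symbols. The top 10% shared 539 symbols, 58.8% of those of Pol II and 47.8% of those of H3K27ac, and the top 1% shared 29, which were 31.5% of the 92 of Pol II and 25.7% of the 113 of H3K27ac.

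**Figure D1:**
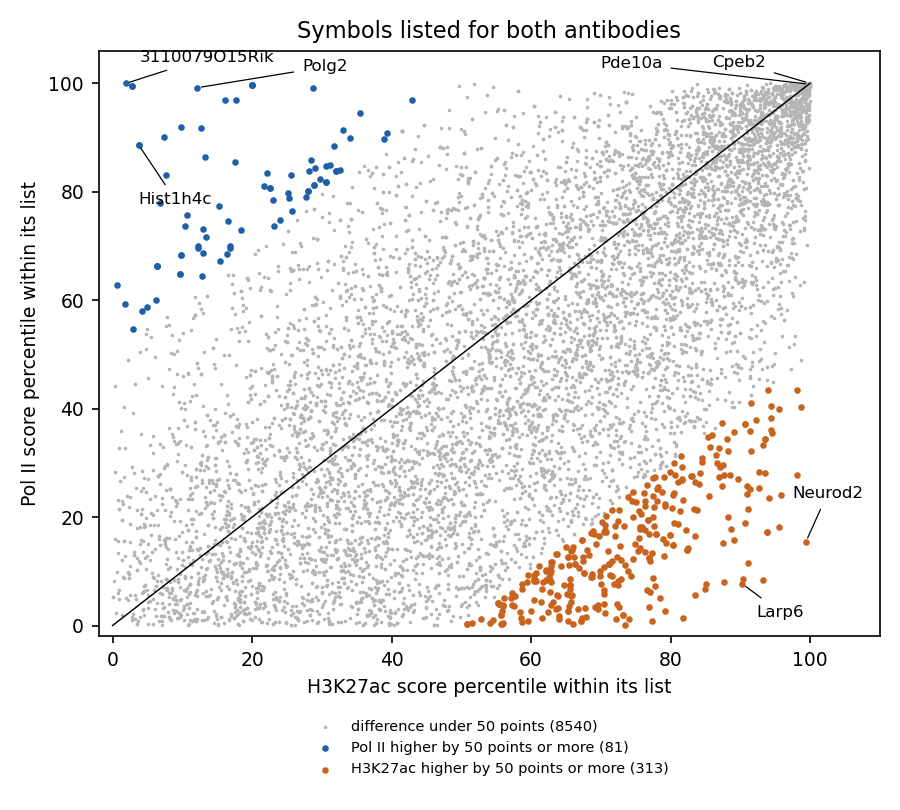
Each point is 1 of the 8934 symbols listed for both antibodies, with its Pol II score percentile on the vertical axis and its H3K27ac score percentile on the horizontal axis, and the line marks equal percentiles. The 81 symbols at least 50 points higher by Pol II lie at the upper left, the 313 at least 50 points higher by H3K27ac lie at the lower right, and the densest corner is the upper right.

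The genes that led both rankings included several known for striatal neurons. Cpeb2, a regulator of mRNA translation that binds cytoplasmic polyadenylation elements, had the highest score in both lists, 9.24 for Pol II and 18.8 for H3K27ac, over regions of 9.6 kb and 10.4 kb. Bcl11b, a transcription factor needed for medium spiny neuron differentiation, had scores of 7.15 and 15.5 and regions of 48.1 kb and 65.3 kb for Pol II and H3K27ac. Among the 10 highest pairs of regions by the lower of their percentiles were also those of Pde10a, the striatal phosphodiesterase, Ngef, a guanine nucleotide exchange factor, the transcription factor Sp3, the calcium pump gene Atp2b1, Spred1, an inhibitor of Ras signalling, and Arhgap21 with Gm13375. Arhgap21 had percentiles of 99.6 for Pol II and 99.5 for H3K27ac.

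Large discordance was uncommon and unequal in direction. The Pol II percentile was at least 50 points above the H3K27ac percentile at 81 symbols (0.907% of shared symbols), in 68 distinct pairs of regions. It was at least 50 points below at 313 symbols (3.5%), in 291 pairs. Pol II was thus the higher one in 20.6% of these calls, but the shared symbols had a median percentile of 50.8 in the Pol II list and 59.6 in the longer H3K27ac list. The median difference over all shared symbols, Pol II minus H3K27ac, was -5.77 points (quartiles -21.1 and 6.47) within the whole lists and -0.0616 when ranks were taken among the shared symbols alone. With those ranks 231 symbols were at least 50 points higher by Pol II and 187 by H3K27ac, so that Pol II was the higher one in 55.3% of calls. The direction of the imbalance thus changed with the set that was ranked. The 24 most discordant pairs of regions named below kept their direction under both rankings, the smallest difference being 73.1 points, at Dgat1.

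Low-scoring regions made up most of the weaker side. Among the 81 symbols higher by Pol II, the median scores were 3.62 for Pol II and 2.78 for H3K27ac, and 50 of them (61.7%) had an H3K27ac score under 3, against 11.9% of all shared symbols. Among the 313 higher by H3K27ac, the median scores were 2.21 for Pol II and 5.42 for H3K27ac, and 288 (92.0%) had a Pol II score under 2.5, against 30.5% of all. The rule of 50 points itself keeps the weaker side low in its list, so these shares follow in part from the rule. The highest percentile on the weaker side was 43.0 for H3K27ac among the 81 and 43.4 for Pol II among the 313. Since no listed score was below 2, these weaker regions lie close to the limit of the lists. The limit of 50 points cuts a continuous spread. Ctnnb1 (50.5 points), Chrac1 (50.7) and Gxylt1 (50.8) lay just inside it on the Pol II side and Slc35b2 (49.9), Polr3b (49.8) and the 7 symbols around Ndufb10 (49.8) just outside. On the H3K27ac side Cog1 (-50.02), Chic2 (-50.1) and Phc3 (-50.2) lay just inside and Unk (-49.99), Braf (-49.98) and B4galt5 (-49.98) just outside.

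At several of the most Pol II-high symbols, 1 wide Pol II region spanned the promoters of neighbours. The largest difference was at 3110079O15Rik, whose Pol II region on chromosome 1 (mm9, 89365701 to 89409400, 43.7 kb) had a score of 8.24 at percentile 99.96, while its H3K27ac region of 4.6 kb had a score of 2.08 at percentile 1.86. That Pol II region was also the one listed for Ngef, and the H3K27ac region of Ngef within it had a score of 13.8 at percentile 99.8. Polg2, the accessory subunit of the mitochondrial DNA polymerase, shared a Pol II region of 14.7 kb at percentile 99.2 with the RNA helicase gene Ddx5 and with Ccdc45. Its own H3K27ac region was at percentile 12.1 and that of Ddx5 and Ccdc45 at percentile 93.2. Wdr24, a subunit of the GATOR2 complex of nutrient sensing, had percentiles of 90.05 for Pol II and 7.30 for H3K27ac, with the H3K27ac region of its neighbour Fbxl16 at percentile 98.6 under the same Pol II region. The same held for Rpl18, Sphk2 and Fam83e next to Car11 (percentiles 99.6 for Pol II, 20.1 for their own H3K27ac region and 97.9 for that of Car11), for Impdh2, an enzyme of guanine nucleotide synthesis, next to Ndufaf3 (83.1, 7.60 and 74.5), and for Dgat1, an enzyme of triglyceride synthesis, next to Scrt1 (86.3, 13.2 and 95.5).

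When each Pol II region was set against the best H3K27ac region it overlapped, whichever symbol that was listed for, 65 of the 81 symbols stayed at least 50 points higher by Pol II and 16 did not. Pol II regions that reached more than 1 H3K27ac region made up 17.3% of these 81 and 0.683% of all shared symbols. In the other direction, 306 of the 313 symbols stayed at least 50 points higher by H3K27ac when the best overlapping Pol II region was used. Here 0.958% of H3K27ac regions reached more than 1 Pol II region, against 0.392% of all. This comparison was chosen after the regions of the named genes had been seen.

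**Figure D2:**
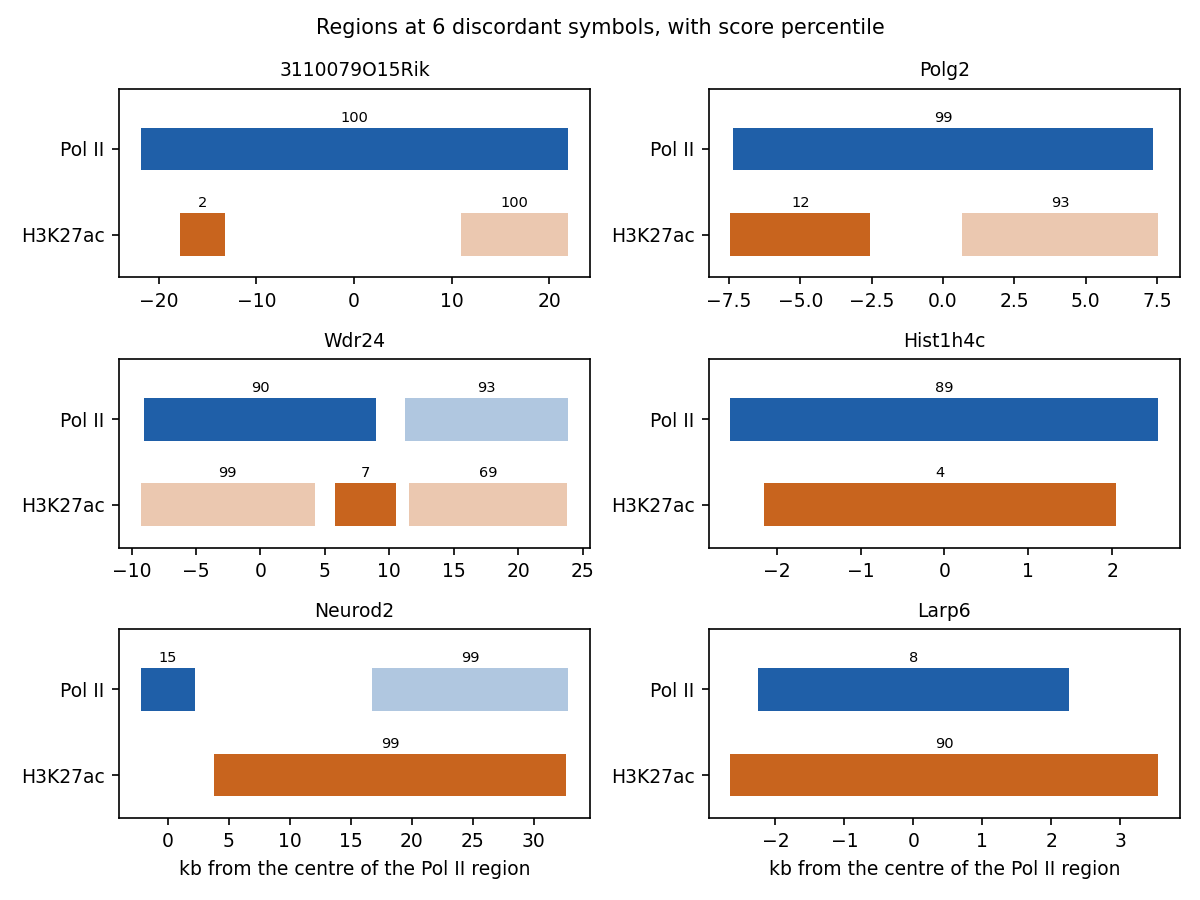
Regions of Pol II (upper bars, blue) and H3K27ac (lower bars, orange) are drawn to scale in kb from the centre of the Pol II region of the named symbol, with the score percentile over each bar. Full colour marks the regions listed for that symbol and pale colour other regions nearby. At 3110079O15Rik, Polg2 and Wdr24 a high H3K27ac region of a neighbour lies under the same Pol II region, at Neurod2 a high Pol II region of neighbours lies under the H3K27ac region, and at Hist1h4c and Larp6 no other region is present.

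The others of the 12 pairs of regions most Pol II-high, except Cd68, had no stronger H3K27ac region under their Pol II region. Lrrc26, which encodes an accessory subunit of a calcium-activated potassium channel, and Tmem210 shared both regions. Their Pol II region on chromosome 2 (mm9, 25139401 to 25150500, 11.1 kb) had a score of 6.48 at percentile 99.5, and their H3K27ac region of 3 kb had a score of 2.13 at percentile 2.75. The histone genes Hist1h1t (a testis linker histone) and Hist1h4c (histone H4) shared regions on chromosome 13 with a Pol II score of 3.997 at percentile 88.7 and an H3K27ac score of 2.17 at percentile 3.72. Zbtb9, a zinc finger gene, had percentiles of 92.0 for Pol II and 9.79 for H3K27ac. Nat10, an RNA cytidine acetyltransferase, had 91.7 for Pol II and 12.6 for H3K27ac. Arl5c, a gene of a small GTPase of the ARF family, had 97.0 for Pol II and 16.1 for H3K27ac, but its Pol II region of 9.9 kb was narrower than its H3K27ac region of 11.5 kb, and ranked by width the difference turned to -1.39 points. Cd68, a lysosomal protein of macrophages and microglia, had 96.9 for Pol II and 17.7 for H3K27ac. Its regions lay 4000 bp apart, and its Pol II region overlapped the H3K27ac region of the translation initiation gene Eif4a1 at percentile 80.9.

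At 10 of the 12 pairs of regions most H3K27ac-high, a low Pol II region lay inside a wider H3K27ac region of high rank. Eml1, a microtubule-binding protein gene, had a Pol II score of 2.14 at percentile 8.44 over 4.6 kb and an H3K27ac score of 8.15 at percentile 93.2 over 6.5 kb. Larp6, an RNA-binding protein gene, had 2.12 at percentile 7.65 for Pol II and 7.47 at percentile 90.3 for H3K27ac. Lrp1, an endocytic receptor, had percentiles of 5.60 for Pol II and 83.6 for H3K27ac, and its relative Lrp3 had 6.74 for Pol II and 85.01 for H3K27ac. Fam125b, a subunit of the ESCRT-I sorting complex, had 1.41 for Pol II and 81.8 for H3K27ac. The differences of Fbxo3, N28178, Ptpmt1, Arap2, and Palm with Prssl1, the remaining pairs of this group with overlapping regions, lay between -76.7 points at Palm and -79.6 at Fbxo3. At the other 2 pairs the regions did not overlap. Neurod2, a transcription factor of cortical glutamatergic neurons, had a Pol II region of 4.5 kb at percentile 15.5, and its listed H3K27ac region of 28.9 kb at percentile 99.4 began 1500 bp away. That H3K27ac region was the one listed for Ppp1r1b, the striatal phosphatase inhibitor, and Stard3, whose Pol II region of 16.1 kb was at percentile 98.7. Mgrn1, a ubiquitin ligase, had percentiles of 8.52 for Pol II and 90.4 for H3K27ac in regions 1400 bp apart. Its H3K27ac region overlapped the Pol II region of Fam100a at percentile 75.8, against which the difference was -14.6 points.

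Promoter sequences are shown for the first pairs in each direction that overlapped and whose gene had exactly 1 promoter entry. The listed regions of these genes are among those whose ranks differed most between the antibodies. The Pol II region of Polg2 is shared with Ddx5 and Ccdc45. Against the best H3K27ac region that it overlapped, the difference at Polg2 was 5.97 points. The sequences shown are RefSeq sequences of GRCm38.p6 from 250 bases before to 50 after the start, written in the direction of the gene. Capitals mark 4 motifs on either strand, and adjoining matches can run together. They are the TATA box letters TATAAA, the GC box letters GGGCGG that Sp factors bind, the CCAAT box that NF-Y binds, and TGACG, the core letters of cAMP response elements. Of all 32851 promoter entries, 13.6% hold the TATA box letters, 35.7% the GC box letters, 37.4% the CCAAT box and 20.8% the cAMP response element core. The regions are on mm9, so the place of each sequence within its region was not checked.
The 4 promoters with a higher Pol II rank are those of Lrrc26 (chr2:25289661-25289960, plus strand), Polg2 (chr11:106779488-106779787, minus strand), Hist1h1t (chr13:23695561-23695860, plus strand) and Hist1h4c (chr13:23698409-23698708, minus strand).
Lrrc26: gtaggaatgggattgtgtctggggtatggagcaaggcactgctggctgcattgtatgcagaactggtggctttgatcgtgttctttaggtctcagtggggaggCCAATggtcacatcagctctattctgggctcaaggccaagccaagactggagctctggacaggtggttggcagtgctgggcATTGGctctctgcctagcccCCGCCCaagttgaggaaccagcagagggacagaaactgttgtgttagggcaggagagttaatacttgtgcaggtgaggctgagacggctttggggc
Polg2: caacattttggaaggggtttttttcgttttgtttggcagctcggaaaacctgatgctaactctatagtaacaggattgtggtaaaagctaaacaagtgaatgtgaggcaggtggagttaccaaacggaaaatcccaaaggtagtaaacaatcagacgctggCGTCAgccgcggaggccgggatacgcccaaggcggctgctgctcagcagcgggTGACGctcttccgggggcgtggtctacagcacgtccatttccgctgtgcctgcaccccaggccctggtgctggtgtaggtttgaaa
Hist1h1t: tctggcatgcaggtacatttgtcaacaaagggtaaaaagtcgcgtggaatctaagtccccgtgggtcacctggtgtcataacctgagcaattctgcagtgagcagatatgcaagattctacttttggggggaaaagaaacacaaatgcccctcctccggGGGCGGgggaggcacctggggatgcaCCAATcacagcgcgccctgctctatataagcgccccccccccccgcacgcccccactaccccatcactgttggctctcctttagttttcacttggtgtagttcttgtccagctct
Hist1h4c: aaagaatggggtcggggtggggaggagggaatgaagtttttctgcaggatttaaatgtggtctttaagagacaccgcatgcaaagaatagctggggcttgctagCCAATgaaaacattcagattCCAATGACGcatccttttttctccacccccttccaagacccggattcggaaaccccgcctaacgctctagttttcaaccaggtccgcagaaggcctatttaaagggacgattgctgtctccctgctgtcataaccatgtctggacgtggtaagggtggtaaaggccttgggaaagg
The 3 promoters with a higher H3K27ac rank are those of Larp6 (chr9:60712871-60713170, plus strand), Fam125b (chr2:33887897-33888196, minus strand) and Lrp3 (chr7:35215296-35215595, minus strand).
Larp6: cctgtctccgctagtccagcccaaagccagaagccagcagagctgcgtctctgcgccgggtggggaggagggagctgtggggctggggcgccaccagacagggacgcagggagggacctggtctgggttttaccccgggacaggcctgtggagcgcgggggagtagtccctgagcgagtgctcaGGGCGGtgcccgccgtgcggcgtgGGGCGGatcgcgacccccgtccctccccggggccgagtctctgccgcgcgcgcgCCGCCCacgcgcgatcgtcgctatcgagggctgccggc
Fam125b: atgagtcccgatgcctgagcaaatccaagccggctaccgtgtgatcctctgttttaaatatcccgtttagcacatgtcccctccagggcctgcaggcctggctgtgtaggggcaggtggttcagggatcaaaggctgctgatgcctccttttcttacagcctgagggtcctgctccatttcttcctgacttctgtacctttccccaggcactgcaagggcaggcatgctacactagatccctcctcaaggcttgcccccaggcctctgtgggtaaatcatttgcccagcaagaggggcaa
Lrp3: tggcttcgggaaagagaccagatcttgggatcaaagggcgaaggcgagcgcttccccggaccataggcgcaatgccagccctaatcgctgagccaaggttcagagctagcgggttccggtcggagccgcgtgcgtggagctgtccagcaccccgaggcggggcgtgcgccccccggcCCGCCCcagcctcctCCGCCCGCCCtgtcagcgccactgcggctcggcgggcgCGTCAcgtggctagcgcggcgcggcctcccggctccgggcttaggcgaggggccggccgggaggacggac
None of the 7 held TATAAA, and variants of these letters were not searched for. Larp6 and Lrp3 held 3 matches to GGGCGG each, Lrrc26 and Hist1h1t 1 each, and Polg2, Hist1h4c and Fam125b none. Larp6 and Lrp3 had the most CpG dinucleotides of the 7, with 34 and 38. Lrrc26 held 3 CpG dinucleotides, Fam125b 4, the histone promoters Hist1h1t and Hist1h4c 10 each, and Polg2 16. CCAAT was found 2 times at Lrrc26 and Hist1h4c and once at Hist1h1t, and TGACG 2 times at Polg2 and once at Hist1h4c and Lrp3. A match is a description of the letters only. Promoter letters were not compared between the groups of symbols, because 79.5% of shared symbols (7102 of 8934) had a promoter entry, under the 80% such a comparison needs.

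The regions of the 2 antibodies overlapped at nearly every symbol. Both lists hold only regions within 3 kb of a transcription start, and none narrower than 2500 bp. Overlap by 1 bp around the same start is thus largely set by how the lists were made. The best-scoring regions overlapped by at least 1 bp at 8870 symbols (99.3%, 99.1 to 99.4%) and did not at 64 (0.716%). The Pol II region lay inside the H3K27ac region at 6158 symbols (68.9%) and the H3K27ac region inside the Pol II region at 303 (3.39%). Bounds were the same at 26 symbols, and 2383 (26.7%) were staggered. The median width was 4900 bp for Pol II and 5500 bp for H3K27ac, and the median ratio of widths, Pol II over H3K27ac, was 0.896 (quartiles 0.833 and 0.944). Pol II regions were the narrower ones at 7894 symbols (88.4%), the wider at 793 and of the same width at 247. Score and width were tied within each list, with a rho of 0.871 for Pol II and 0.795 for H3K27ac over the shared symbols, and the rho between the widths of the 2 antibodies was 0.649. The percentile difference and the width ratio shared that tie, with a rho of 0.606.

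The narrower Pol II regions fell short mainly on the gene side. Over 6291 pairs of regions whose symbols lie on 1 strand, the Pol II edge downstream, in the direction of transcription, stopped short of the H3K27ac edge, with a median difference of -400 bp (Pol II minus H3K27ac, quartiles -700 and -300). Upstream the median difference was -100 bp (quartiles -300 and 100). Pol II reached past H3K27ac downstream in 394 pairs (6.26%) and upstream in 1753 (27.9%). All bounds lie on a grid of 100 bp, so the upstream median is 1 step of that grid.

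**Figure D3:**
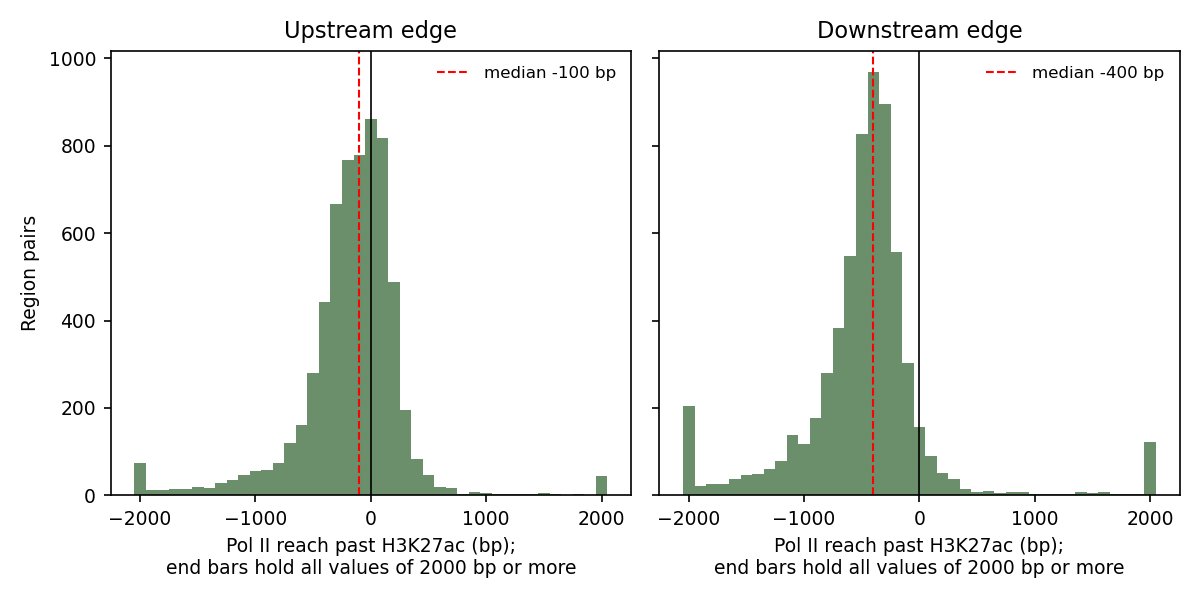
Histograms of how far the Pol II region reached past the H3K27ac region in bp, at the upstream edge (left) and the downstream edge (right), over 6291 pairs of regions on 1 strand, with all values of 2000 bp or more, either way, in the end bars. Negative values mean that H3K27ac reached farther, and the dashed medians are at -100 bp upstream and -400 bp downstream.

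In a small set of pairs the Pol II region reached far past the H3K27ac region downstream. Of the 6291 pairs, Pol II reached at least 5 kb past H3K27ac downstream in 43, and H3K27ac reached at least 5 kb past Pol II in 52. In 5 of the 43 the Pol II region also stopped at least 3 kb short upstream, as at Zbtb9 (-3600 bp upstream, 5100 bp downstream), so those regions were shifted along the gene strand. Gene ends were not compared with the regions. Pde10a had the widest Pol II region, 193.2 kb on chromosome 17 (mm9, 8991301 to 9184500), against 27.6 kb for H3K27ac, so that Pol II reached 166700 bp past it downstream. Phactr1, a regulator of protein phosphatase 1 and actin, had a Pol II region of 154.5 kb and an H3K27ac region of 9.8 kb, a ratio of 15.8. Baiap2, a postsynaptic scaffold and actin regulator, and Adcy5, the main adenylyl cyclase of the striatum, both had Pol II 62000 bp past H3K27ac. The pump subunit gene Atp1b1 (19600 bp), the calcium pump gene Atp2b1 (17600 bp) and the calmodulin gene Calm2 (16600 bp) were also in this set. Ppp1r1a, a phosphatase inhibitor gene whose pair is not among the 6291, had regions of 41.2 kb for Pol II and 6.3 kb for H3K27ac, and its Pol II region also covered the H3K27ac region of Pde1b at percentile 98.7.

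Among the 6291 pairs, H3K27ac reached farthest past Pol II downstream at Coro2b, a coronin gene (Pol II minus H3K27ac edge -17300 bp), and Adora2a, the adenosine receptor of indirect pathway neurons (-15700 bp), followed by Celf5 (-12600 bp), Bcl11b (-12400 bp), Mn1 (-11600 bp) and Inhba (-11200 bp). Coro2b had regions of 5.5 kb for Pol II and 23.4 kb for H3K27ac, with percentiles of 84.3 and 99.8. Adora2a had regions of 5.1 kb and 21.3 kb, with percentiles of 39.6 for Pol II and 81.7 for H3K27ac. Bcl11b was high for both antibodies and still had the wider H3K27ac region. Pol II was at least 2 times as wide at 67 symbols, with a median percentile difference of 15.6 points, and H3K27ac at 168 symbols, with a median of -25.2. Of the symbols with the lowest ratio of widths, Pol II over H3K27ac, Rnf187 (0.234), Mir324 (0.239) and Zmynd8 (0.268) had Pol II percentiles of 63.4, 25.4 and 46.3 and H3K27ac percentiles of 90.5, 92.7 and 78.9. The regions of Rnf187 lay 300 bp apart, and its H3K27ac region overlapped the Pol II region of Hist3h2ba at percentile 93.5.

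Most of the 64 symbols without overlap had several listed promoters. At 55 of them some other region of the symbol overlapped, and at 9 no region did. The gap was 2250 bp at the median and 359900 bp at most, with 27 gaps within 1 kb. Tsc22d1, a leucine zipper gene of TGF-beta signalling with alternative promoters, had Pol II and H3K27ac percentiles of 99.2 and 96.5 in regions 83400 bp apart. Dlgap4, a postsynaptic scaffold gene, had percentiles of 93.9 for Pol II and 97.8 for H3K27ac in regions 100500 bp apart, and Rtn1, a reticulon gene, had 77.5 and 89.8 in regions 165700 bp apart. Gdf1, Kif17, Amac1, Synpo, Urgcp and Afap1, the others with the highest Pol II scores in this set besides Cd68, had gaps between 0 bp at Kif17, whose regions touched, and 16000 bp at Urgcp.

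H3K4me3, the promoter mark that the ranking did not use, differed between the 2 directions. It was listed at 80 of the 81 symbols higher by Pol II and at all 313 higher by H3K27ac. Its median percentile was 42.2 at the symbols higher by Pol II, 67.8 at those higher by H3K27ac and 68.4 at all shared symbols. From the lowest to the highest percentile difference in 6 bins, the medians were 67.8, 69.9, 71.8, 66.5, 51.8 and 42.2, so the fall lay mainly on the side where Pol II ranked higher by more than 25 points. Over 8932 symbols the rho with the H3K4me3 score was 0.474 for Pol II and 0.647 for H3K27ac. The symbols higher by Pol II had a median H3K27ac percentile of 17.5, which the rule that chose them keeps low. They were not compared with symbols of like H3K27ac rank. Whether their lower H3K4me3 goes beyond their low H3K27ac rank was thus not tested. H3K27me3, the Polycomb mark, was listed at 11.1% of the symbols higher by Pol II (9 of 81, 5.21 to 20.0%), 12.5% of those higher by H3K27ac (39 of 313, 9.01 to 16.6%) and 14.5% of all shared symbols, so the intervals of both groups include the share of all. The 1291 symbols with H3K27me3 had median percentiles of 34.0 for Pol II and 43.9 for H3K27ac, and the 7643 without it had 54.0 for Pol II and 62.3 for H3K27ac. The median difference was -7.69 points with H3K27me3 and -5.50 without, and the rho between the scores was 0.580 and 0.667.

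**Figure D4:**
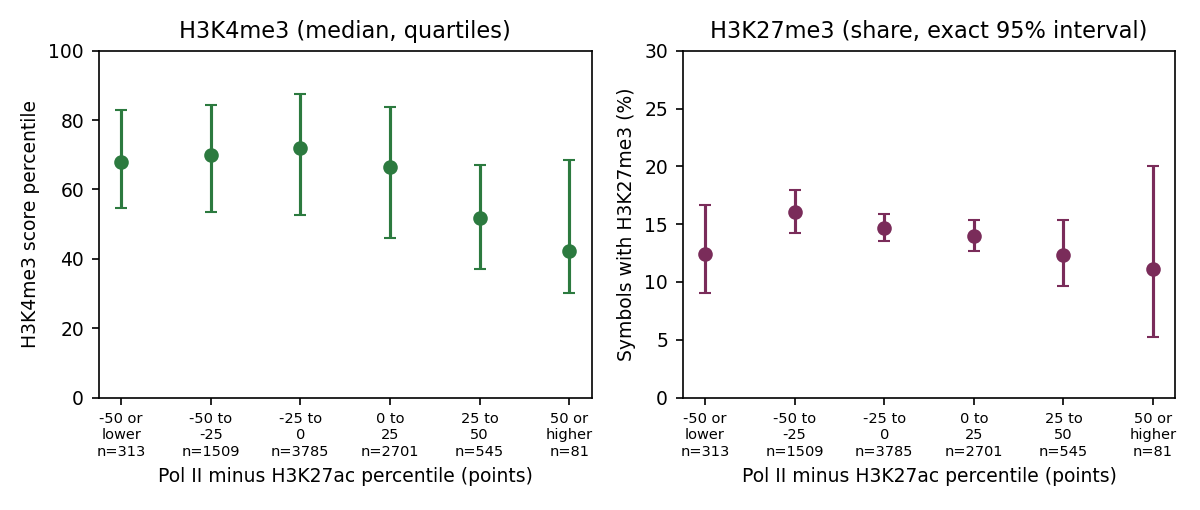
Symbols listed for both antibodies are binned by Pol II minus H3K27ac percentile, with their number under each bin. Left, the median and quartiles of the H3K4me3 score percentile (for symbols with an H3K4me3 line), which is 42.2 in the highest bin and 67.8 in the lowest. Right, the share of symbols also listed for H3K27me3 in percent with its exact 95% interval, between 11.1% and 16.0%.

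Gene lists were then read by their median percentile difference, beside -5.77 for all shared symbols, and by how many members passed 25 points, beside 7.01% of all shared symbols on the Pol II side (626) and 20.4% on the H3K27ac side (1822). The genes of medium spiny neurons were high for both antibodies and close to the diagonal. Their median percentiles were 94.1 for Pol II and 98.1 for H3K27ac. A symbol so near the top of the H3K27ac list cannot be 25 points higher by Pol II. Closeness to the diagonal and the lack of members far higher by Pol II thus follow in part from these high ranks. Of the 36 genes, none was 25 points or more higher by Pol II and 1 by H3K27ac (Dclk3, a kinase gene, with percentiles of 40.2 for Pol II and 89.0 for H3K27ac). Their median difference was -1.80 points, above that of all shared symbols with whole-list ranks but below it (-0.523 points) with ranks among shared symbols. Ppp1r1b had percentiles of 98.7 for Pol II and 99.4 for H3K27ac and Adcy5 had 98.5 and 99.3. Rgs9, the striatal regulator of G protein signalling, had 78.6 for Pol II and 96.9 for H3K27ac, and the phosphatase gene Ptpn5 had 81.1 and 97.9. Of 35 pan-neuronal genes 31 were shared, with a median difference of -2.04 points, and this list too lay below all shared symbols (-1.20 points) with ranks among shared symbols. Gap43, a growth cone protein, had 25.7 for Pol II and 72.3 for H3K27ac, and Uchl1, a ubiquitin hydrolase of neurons, had 97.6 for Pol II and 64.1 for H3K27ac.

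Genes of the direct and indirect pathway, the 2 classes of medium spiny neuron, were spread widely. Of the 6 shared direct pathway genes, the dopamine receptor gene Drd1a had percentiles of 85.1 for Pol II and 91.8 for H3K27ac, the tachykinin gene Tac1 56.0 and 70.8, and the muscarinic receptor gene Chrm4 71.3 and 86.9. Slc35d3, which is needed for membrane delivery of the D1 receptor in mice, had 34.7 for Pol II and 85.3 for H3K27ac, and the transcription factor genes Isl1 (88.2 and 47.9) and Ebf1 (53.3 and 38.2) stood higher by Pol II. Among the 8 indirect pathway genes, Drd2 had 27.6 for Pol II and 83.0 for H3K27ac, a difference of -55.3 points. Adora2a, the glutamate receptor gene Grik3 (47.5 and 90.1) and the receptor phosphatase gene Ptprm (17.4 and 68.8) also stood higher by H3K27ac. Penk, the enkephalin precursor, had 98.3 for Pol II and 73.4 for H3K27ac, and the transcription factor Sp9 (94.6 and 58.9) and the orphan receptors Gpr52 (70.8 and 51.7) and Gpr6 (89.5 and 76.9) also stood higher by Pol II. All of these genes except Gpr52 also had a listed H3K27me3 region. The list medians, -10.7 points for the direct and -14.8 for the indirect pathway, lay below that of all shared symbols by score. They lay above it by 3.43 and 0.786 points when ranked by width. That of the indirect pathway lay above it by 34.5 with a minimum score of 3 and by 47.4 in the upper 50% of regions. Fewer members remain in both settings. Drd2, Adora2a, Grik3 and Ptprm had Pol II scores of 2.44, 2.63, 2.76 and 2.27. The minimum score of 3 thus left only members that stood higher by Pol II, so the value of 34.5 follows from the filter.

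Activity-induced genes were high for both. Of 39, 32 were shared, with medians of 90.7 for Pol II and 85.3 for H3K27ac and a median difference of 2.60 points. Npas4, a transcription factor induced by calcium entry, had percentiles of 99.3 for Pol II and 54.6 for H3K27ac. Fos had 47.5 for Pol II and 21.3 for H3K27ac. Egr2 (12.1 and 52.1) and Csrnp1 (10.1 and 43.0), both induced transcription factors, stood higher by H3K27ac. Egr1, Junb and Arc were at 99.9, 99.8 and 99.8 for Pol II and 93.7, 97.2 and 91.0 for H3K27ac.

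Histone, small nuclear and nucleolar RNA, ribosomal protein and splicing factor genes stood on the Pol II side of all shared symbols, under each setting that gave a value. Of 65 replication-dependent histone genes listed for any antibody, 39 were shared, in 17 pairs of regions, so many share a source. Their medians were 61.1 for Pol II and 28.3 for H3K27ac, 6 were at least 50 points and 17 at least 25 points higher by Pol II, and 2 at least 25 points higher by H3K27ac. Besides Hist1h1t and Hist1h4c these 6 were Hist1h4d (73.7 and 10.4) and Hist1h2ag, Hist1h2bj and Hist1h4i, which share 1 pair of regions (66.4 and 6.30). Of 83 snoRNA and snRNA genes, which often lie within the introns of host genes, 69 were shared, 18 at least 25 points higher by Pol II and 1 by H3K27ac, with a median difference of 11.8 points. Cytosolic ribosomal protein genes, 87 of 95, had a median difference of 9.40 points, with 16 at least 25 points higher by Pol II and 7 by H3K27ac. Rps15a (73.1 and 13.0) and Rps7 (78.8 and 25.3) led them beside Rpl18. The 34 splicing factor genes were high for both, with medians of 87.8 for Pol II and 75.7 for H3K27ac, and Srsf2 had 98.6 and 58.1. Some snoRNA genes share regions with ribosomal protein genes, such as Snora64 and Snora78 with Rps2 (91.3 and 41.5) and Snord72 with Rpl37 (86.2 and 41.7).

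Other families stood nearer to the median of all shared symbols, some above it and some below. Oxidative phosphorylation genes, 80 of 88, had a median difference of -14.3 points. At least 25 points higher by Pol II were 5 of them (6.25%, against 7.01% of all shared symbols). By H3K27ac there were 18 (22.5%, against 20.4%), so both shares were near those of all. In the upper 50% of regions the median of this list was 0.815 points above that of all shared symbols. Ndufb8 (27.4 and 76.0), of complex I, and Sdhb (24.3 and 69.3), of complex II, were among the most H3K27ac-high. Potassium channel genes, 39 of 89, had none at least 25 points higher by Pol II and 13 by H3K27ac (33.3%, against 20.4% of all shared symbols). Their median H3K27ac percentile was 85.3, and a symbol so high in that list cannot be 25 points higher by Pol II. The lack of members on the Pol II side thus follows in part from this high rank. Kcnip3, a calcium-binding channel partner, had percentiles of 14.4 for Pol II and 82.5 for H3K27ac, Kcnk3 had 5.43 and 63.8, and Kcna2 had 50.2 and 94.95. Numbered zinc finger genes, 194 of 361, had 9 at least 25 points higher by Pol II (4.64%, against 7.01% of all shared symbols). By H3K27ac there were 48 (24.7%, against 20.4%), led by Zfp592 (27.7 and 98.1). The median difference of this list relative to that of all shared symbols was only -1.79 points. Proteasome genes (24 of 39) had a median difference of -2.58 points, with Psmd5 at 81.3 for Pol II and 28.9 for H3K27ac, and this median was 3.20 points above that of all shared symbols, 20.3 with a minimum score of 3 and 16.2 in the upper 50% of regions. Chaperone genes (53 of 72) had -0.926 points, with Dnajc7 at 37.2 and 90.7, and stood 4.85 points above all shared symbols, 11.9 with a minimum score of 3 and 17.8 in the upper 50% of regions. Both score limits remove members that are low in either list. The larger proteasome and chaperone values under them thus rest on members selected by score. MicroRNA genes (63 of 262) had -0.348 points and 3 members at least 50 points higher by H3K27ac, namely Mir324 (25.4 and 92.7), Mir330 (16.9 and 77.9) and Mir9-1 (9.27 and 60.4), or 3 of 63 against 3.50% of all shared symbols. At 25 points or more, 3 microRNA genes were higher by Pol II and 7 by H3K27ac (11.1%, against 20.4% of all). The region of Mir330 is shared with Eml2, and the H3K27ac region of Mir324 is that of Dlg4.

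The genes of the transcription and acetylation machinery themselves varied by subunit. Of 12 Pol II subunit genes 10 were shared, with a median difference of 12.6 points (quartiles -19.2 and 17.7) and 6 members higher by Pol II. Their median percentiles, 27.8 for Pol II and 31.8 for H3K27ac, ran the other way. Polr2a, the largest subunit, had percentiles of 90.8 for Pol II and 39.4 for H3K27ac, and Polr2j had 52.5 and 19.4. Polr2c (13.3 and 44.0) and Polr2l (11.8 and 34.8) stood higher by H3K27ac, and the other 6 lay within 20 points. Initiation factor genes, 23 of 32 names, had a median difference of 6.75 points, with Taf12 at 81.4 for Pol II and 42.1 for H3K27ac and Ccnh, of the kinase of TFIIH, at 11.04 and 54.2. Pausing and elongation factor genes, 22 of 34 names, had a median of 0.282 points. Hexim1, the inhibitor of the elongation kinase, had 93.9 for Pol II and 61.0 for H3K27ac, and Ell2, an elongation factor, had 35.4 and 80.0. Of 32 writers, erasers and readers of acetylation 23 were shared, with a median of -3.68 points, above that of all shared symbols by whole-list score but below it in the upper 50% of regions (-2.31 points) and with ranks among shared symbols (-3.18 points). Ep300 had 95.2 for Pol II and 98.8 for H3K27ac. Brd7, a bromodomain protein, had 19.1 for Pol II and 70.2 for H3K27ac, and Yeats4, a reader of acetylated histones, had 83.9 and 36.6.

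**Figure D5:**
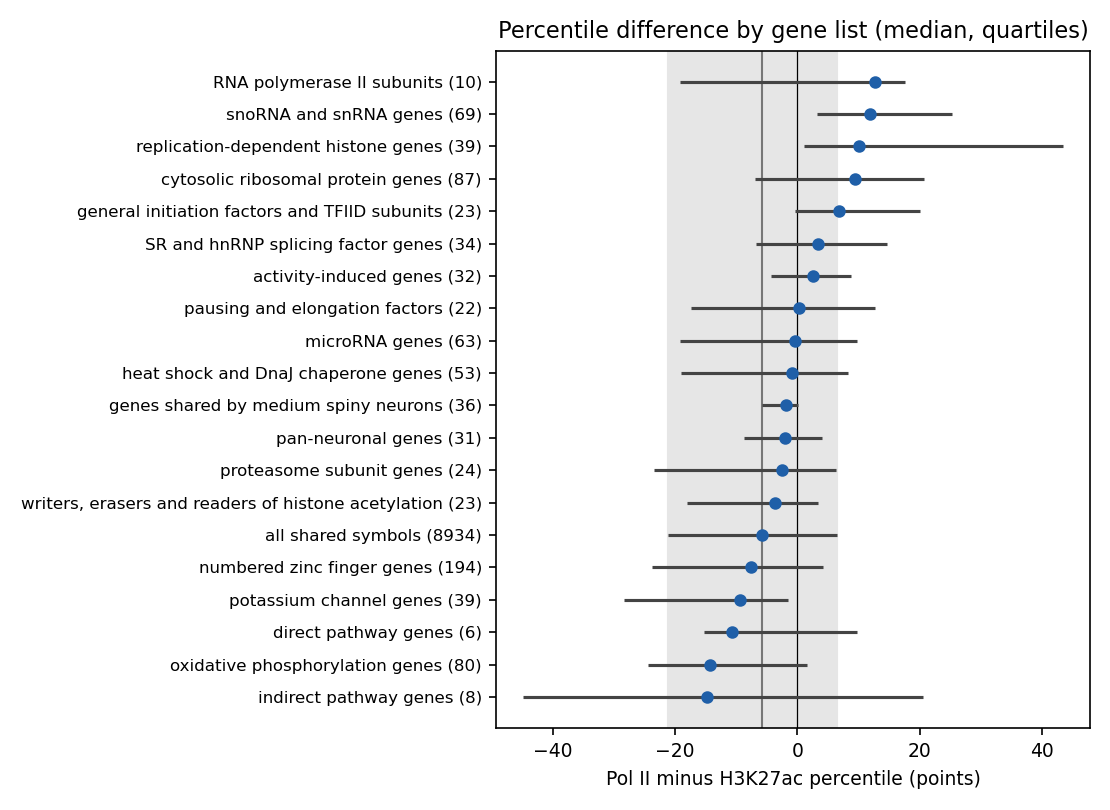
Median (points) and quartiles (lines) of the Pol II minus H3K27ac percentile for each gene list, with the number of shared symbols in brackets, from the list most on the Pol II side at the top. The grey band and line are the quartiles and median of all shared symbols (-21.1, -5.77 and 6.47). Pol II subunits (12.6) and snoRNA and snRNA genes (11.8) lie at the top and oxidative phosphorylation (-14.3) and indirect pathway genes (-14.8) at the bottom.

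The 5 oligodendrocyte and astrocyte markers among the shared symbols were all higher by H3K27ac. That was also the more common case over all, since 3327 of the 8934 shared symbols were higher by Pol II. Mbp, a myelin protein gene, had percentiles of 15.2 for Pol II and 87.5 for H3K27ac, a difference of -72.2 points, and Cnp had 14.3 and 33.8. The astrocyte list was represented by Slc1a2 (11.4 and 39.7), Slc4a4 (49.6 and 77.1) and Gli3 (43.8 and 71.2), and the vessel list by Vtn (44.8 and 45.9). The microglia list was represented by Cd68 (96.9 and 17.7), but its 2 regions lie 4000 bp apart and its Pol II region overlaps the H3K27ac region of Eif4a1, against which the difference was 16.0 points. Whether other cells in the sort take part in these values was not tested.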

How the data were processed

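Chromatin immunoprecipitation libraries of Pol II, H3K27ac, H3K4me3 and H3K27me3, 1 each, were used as the authors' deposited lists of regions within 3 kb on each side of a transcription start, per the file names. Bowtie 0.12.7, MACS 1.4 and build mm9 are named with no role or order, per the submitters' processing notes. Each deposited line gives a region, a transcript, a symbol and the authors' own score over input, on a scale that no source used here gives. No score was below 2, no region narrower than 2500 bp, and bounds lay on a grid of 100 bp. Depth is unknown. How the authors set the score limit and the depth of each library can change which symbols are listed.

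Lines without a symbol were left out (24 for Pol II and 29 for H3K27ac). For each symbol the region with the highest score was kept, ranked within its list, and given a percentile, ties sharing the mean rank. Regions sharing at least 1 bp counted as overlapping. The score was used only to rank and filter within a list. Symbols were looked up in the RefSeq genes of GRCm38.p6 (8912 of 8934 found, 99.8%) and promoter sequences were taken from RefSeq entries of that build. Alternatives covered the unit counted, transcript class, score limits, the set ranked, width in place of score, the size of difference and the overlap rule. With 1 library per antibody no test was made. Statistics, tested on simulated data first, were computed in Python 3.11.15 with pandas 2.3.3, numpy 2.4.6 and scipy 1.17.1, and figures were drawn with matplotlib 3.10.9.

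The symbols and gene lists were chosen with earlier results of these data known. Named by rule were the 12 pairs of regions with the largest difference in each direction, the 10 highest in both, the 6 with the largest and the 6 with the smallest width ratio, 10 without overlap, the 3 symbols on each side of each limit, and up to 6 members per list by size of difference (every shared member of a list of 12 or fewer). Genes by downstream reach, the listed markers and further list members such as Ppp1r1b, Egr1, Srsf2, Ep300 and Rpl37 were named outside it, after their values were seen. A few genes that fall under this rule are not reported here. List counts of names include older and newer spellings of 1 gene.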

Additional observations from a re-analysis of the deposited data

How the results depend on the processing

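With 1 library per antibody, no replicate could be left out. No paired analysis was possible because each antibody has 1 library. Across the settings, 26 main results stayed within tolerance (a rho or width ratio the same to 2 decimals, a count within 1.5 times, an overlap within its 95% interval) and 18 did not. With a score of at least 3 in each list, 3620 symbols were shared, the rho was 0.515, the width ratio 0.911, and 31 symbols were at least 50 points higher by Pol II and 505 by H3K27ac. In the upper 50% of regions 3903 were shared, with a rho of 0.529 and 99.5% overlap. Ranks among shared symbols gave 231 and 187 discordant symbols for Pol II and H3K27ac, 25 points in place of 50 gave 626 and 1822, and ranking by width gave a rho of 0.649 and 470 symbols higher by H3K27ac. The width ratio was 0.895 for coding transcripts. Overlap was 99.9% for symbols with 1 region in each list (99.896) and for any region of a symbol (99.8993), and 96.4% when 0.5 of both regions had to overlap. The 2 score limits remove symbols that are low in either list, so list medians under them rest on members selected by score. Of the list medians relative to all shared symbols, 121 kept their sign and 9 did not. Those were the indirect pathway (34.5 with a score of at least 3, 47.4 in the upper 50%, 0.786 by width), the direct pathway (3.43 by width), oxidative phosphorylation (0.815 in the upper 50%), acetylation genes (-2.31 in the upper 50%, -3.18 with ranks among shared symbols), and with those ranks medium spiny neuron genes (-0.523) and pan-neuronal genes (-1.20). Of the 24 named discordant pairs, Arl5c turned to -1.39 by width, Fam83e (8.24), Fbxo3 (-47.8) and Ptpmt1 (-32.0) moved, and none has a value under the 2 score limits, where each is missing from at least 1 list. The cause was not tested.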

Other observations

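Genes on the X chromosome were 0 of the 81 symbols at least 50 points higher by Pol II, with an exact 95% upper limit of 4.45%, 11 of the 313 higher by H3K27ac and 267 of all 8934 shared symbols. Both regions were shared with another symbol at 29.6% of the symbols higher by Pol II, 14.1% of those higher by H3K27ac and 30.1% of all shared symbols. Pol II regions at the 81 symbols had a median width of 5300 bp, against 4900 bp for their H3K27ac regions, and at the 313 symbols 4400 bp for Pol II and 5600 bp for H3K27ac.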
